A study of Mus musculus with 6 samples.

Results

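The BCL2 family genes read here were 10 genes of survival and death, Bcl2, Bcl2l1, Mcl1, Bax, Bak1, Bcl2l11, Bid, Bad, Bbc3 and Pmaip1. They were chosen by name, and every non-control probe that carried one of these names was read, which gave 13 of 55681 probes and 10 of 36163 gene names on the array. Expression in sorted peritoneal cavity (PC) B1a cells was measured on 1-colour Agilent arrays, with 3 samples of p40-/-IL-2Rα-/- mice, called knockout, and 3 of p40-/-IL-2Rα+/- mice, called control. The labels write the second gene as CD25. All animals were 7-week-old females on a C57Bl/6 background, and both genotypes lack p40, the shared subunit of IL-12 and IL-23 (gene Il12b), so the groups differ in whether 1 or no working copy of IL-2Rα (gene Il2ra) remained. The knockout mice develop autoimmune cholangitis, and the deletion is carried by every cell of the body, not by B cells alone. One question of the study was how well the B1a cells of these mice survive. By the design text of the series, a sample had at least 3 mice. The labels number the samples but do not say that they came from separate mice, so the p-values measure the spread between these samples.

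Proteins of the BCL2 family decide whether the outer membrane of the mitochondrion stays closed. Anti-apoptotic members (BCL2, BCL-XL from Bcl2l1, MCL1) hold the effectors BAX and BAK in check, and the effectors, once free, form pores that let cytochrome c escape and start the caspases. BH3-only members (BIM from Bcl2l11, BID, BAD, PUMA from Bbc3, NOXA from Pmaip1) sense lost growth signals, DNA damage or death receptors and tip the balance towards the effectors, and B cells depend on this balance at every stage of their life.

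The probes are 60 bases long. The sequences of 6 of them are shown because the results below turn on them. The probes of Bcl2, of the unmeasured part of Bcl2l1, of Bcl2l11 and the dimmer one of Bad are given whole, and for Bax and Bak1 the first 30 bases are given. The probe of Bcl2 lies in coding sequence that holds the end of the BH1 domain and the stretch after it. Capitals in the probe of Bcl2l11 mark a stretch that codes for the core of the BH3 motif, the part of BIM that binds the groove of its partners. All sequences are those of the array files.
Bcl2: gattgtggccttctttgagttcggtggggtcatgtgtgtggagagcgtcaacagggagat
Bcl2l1, dimmer probe: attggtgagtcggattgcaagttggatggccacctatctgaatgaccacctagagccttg
Bcl2l11: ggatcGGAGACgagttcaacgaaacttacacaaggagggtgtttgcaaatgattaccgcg
Bad, dimmer probe: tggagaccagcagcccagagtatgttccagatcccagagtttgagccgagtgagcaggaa
Bax, first 30 bases: tcctgggatgaatgggggaaggggaaaggc
Bak1, first 30 bases: tgtcttgcacaacataggggtgagaagttt

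Every level below is the log2 of the processed signal of a probe minus the 75th percentile of its array, and every difference is knockout minus control on this log2 scale. A probe entered the limma fit if every array of 1 genotype or of both read it well above background, and 24756 of the 55681 probes did. The 75th percentile of the processed signal was 252 to 272 on the control arrays and 66.5 to 162 on the knockout arrays, and 47.2% to 50.6% of the spots were well above background on control arrays against 39.7% to 45.9% on knockout arrays. The dimmer arrays are thus the knockout arrays, and the part of this in the differences below was not tested. In the fit over all tested probes, 900 (3.64%) passed the thresholds of the study, at least 2-fold with an unadjusted p of at most 0.05, of which 589 (2.38%) were higher and 311 (1.26%) lower in knockout, and 20 (0.0808%) passed an adjusted p of 0.05. The share of higher calls was 65.4%, and it was 44.4% after quantile normalization, 53.5% after cyclic loess, 78.8% after scaling on the median of detected probes, 98.2% without the filter on dim probes, 84.5% with the filter on all 6 arrays and 50.9% without knockout 2.

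The deleted gene Il2ra, probed at chr2:11614744-11614803 (mm9), had levels of 1.62, 1.13 and 1.35 on control arrays 1 to 3 and of -0.31, -0.59 and 0.86 on knockout arrays 1 to 3. All 3 knockout values lay below all control values, with knockout 3 nearest to them, and the signal was well above background on all 6 arrays. The difference was -1.38 (SE 0.368, limma, adjusted p = 0.119, n = 3 and 3). Il12b, deleted in both genotypes, differed by -0.02 (SE 0.223, adjusted p = 0.957), and all 6 arrays read its probe well above background, with levels of -2.52 to -1.80. All 7 B cell markers were well above background on all arrays, as were all 6 B1a cell markers. Of the latter, Cd5 differed by -0.23 (limma, adjusted p = 0.424) with overlap, Itgam, which codes for CD11b, by 0.79 (adjusted p = 0.219) with all knockout values above control, and Cd9 by -0.48 (adjusted p = 0.155) with all knockout values below. Spn, Zbtb32 and Plscr1 overlapped. Of 14 T cell markers, 9 were tested and Cd3d, Thy1 and Zap70 passed the 2-fold thresholds towards knockout, while Cd8a and Cd8b1 were well above background only on knockout 3. The probes of Cd3d, Thy1 and Zap70 were dim. Among probes of like brightness 6.22% passed 2-fold in either direction, beside 3.64% of all tested probes, and the median difference was 0.19. The median difference of the 9 tested T cell markers was 0.60, and 2 of them, Cd2 and Cd3g, lay below 0. The summed linear level of the list, 268 to 282 times the 75th percentile in control and 223 to 305 in knockout, came almost wholly from Cd2 (-0.15) and so does not show the other markers. NK cell markers summed to 2.36 to 2.52 in control and 3.02 to 5.43 in knockout, with Nkg7 past 2-fold (1.00), and Ncr1, Klrb1c and Klrk1 were not well above background on any array. Plasma cell markers summed to 68.6 to 75.6 in control and 46.6 to 59.5 in knockout, mostly from Xbp1 (-0.52) and Irf4 (-0.30), and Igj (-1.92), which adds little to the sum, passed 2-fold. Of 12 tested macrophage markers 10 lay below 0, Lyz2 passed 2-fold lower in knockout (-1.08, with overlap), and Marco was highest on knockout 2 (4.31, against 0.70 to 2.48 on the other arrays). The list summed to 22.4 to 56.5 in control and 24.7 to 61.5 in knockout. Granulocyte and mast cell markers summed to 109 to 119 in control and 116 to 224 in knockout, almost wholly from Csf3r (0.46). Of the other tested ones, Elane differed by 0.43 and Cpa3 by -1.27, and Mcpt4 passed 2-fold lower in knockout but was well above background on 1 knockout array. The part of these cells in the results below was not tested, and in sorted bulk RNA fewer cells that express a gene cannot be told apart from less RNA per cell.

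All 10 genes had at least 1 probe well above background on all 6 arrays. Of their 13 probes, 12 were well above background on all 6 arrays and were tested, and the probe left out is one of the pair for Bcl2l1. No member probe reached 2-fold, beside 3.64% of all tested probes, and none passed the adjusted p, beside 0.0808%. The differences ran from -0.49 for Bak1 to 0.24 for Bcl2l11, with 10 of 12 below 0 and a median of -0.23, beside 57.6% below 0 and a median of -0.09 over all tested probes. The gap between these medians depended on the processing, with -0.0805 for members and -0.0655 for all probes after quantile normalization, -0.0937 and -0.0761 in the deposited values, and -0.4875 and -0.002 with normexp. In 5 of the 12 (Bax, Bak1, Bid, Bbc3 and the brighter probe of Bad) all knockout values lay below all control values, as they did in 19.6% of all tested probes, and in none did all knockout values lie above, as they did in 15.6% (35.2% for both directions). Among probes of like brightness to these 5, 35.4% to 40.3% lay wholly below control and 5.34% to 6.70% wholly above, so the count of 5 is near the share at that brightness. An unadjusted p of at most 0.05 was reached by 3 member probes (Bak1, Bax and the brighter probe of Bad), all lower in knockout, where 24.6% of all probes reached such a p and 12% were lower with it. That count of member probes was 1 after quantile normalization, in the deposited values, after cyclic loess and without the filter on dim probes, and 9 with normexp. With 3 arrays against 3, an exact two-sided permutation test cannot go below p = 0.1.

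**Figure D1:**
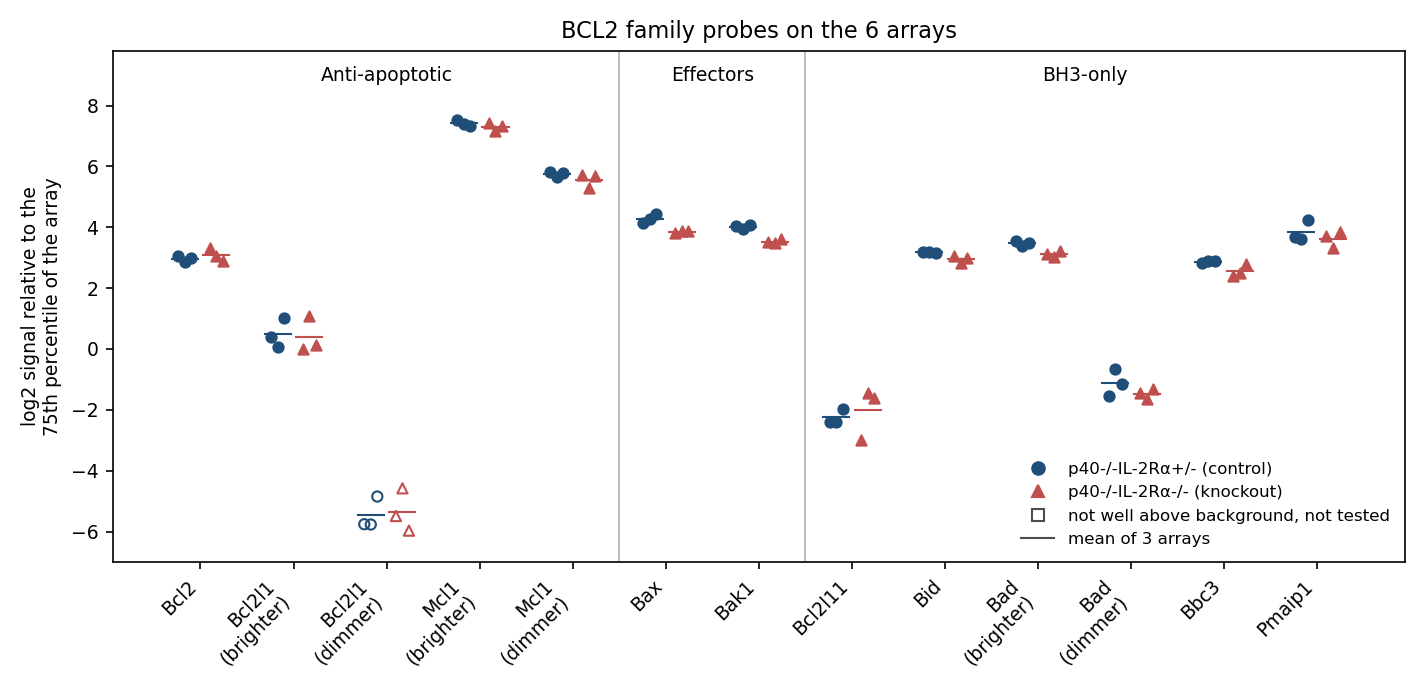
Levels of the 13 member probes (log2 signal relative to the 75th percentile of the array, vertical axis) on the 3 control arrays (blue circles) and the 3 knockout arrays (red triangles), with short lines at the means of 3 arrays and open symbols for the probe not well above background. The 2 genotypes separate for Bax, Bak1, Bid, the brighter probe of Bad and Bbc3, and overlap for the other tested probes. Heights of different probes cannot be set against each other, because probes differ in how they hybridize.

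Among the anti-apoptotic members no probe separated the genotypes. Bcl2, the founding member and a guard of resting lymphocytes, was read by 1 probe at chr1:108608970-108609029 (mm9, minus strand), with levels of 3.04, 2.87 and 3.00 in control and 3.32, 3.04 and 2.89 in knockout. Knockout 1 was the highest of the 6 and knockout 3 lay inside the control range. The difference of 0.11 (SE 0.165, 95% interval -0.28 to 0.50, limma, adjusted p = 0.673) was smaller than the spread of the knockout arrays, whose SD was 0.22.

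Mcl1, a short-lived protein that B cells need at all stages, had 2 probes that start 1312 bases apart on chromosome 3. The brighter one, at chr3:95466855-95466914 (plus strand), read 7.54, 7.38 and 7.33 in control and 7.44, 7.15 and 7.33 in knockout. The genotypes overlapped, with knockout 2 lowest, and the difference was -0.11 (SE 0.152, 95% interval -0.47 to 0.24, limma, adjusted p = 0.642). The dimmer one, at chr3:95465543-95465602, read 5.81, 5.65 and 5.78 in control and 5.72, 5.28 and 5.68 in knockout. Again knockout 2 was lowest and the groups overlapped, with a difference of -0.19 (SE 0.171, adjusted p = 0.484). Without knockout 2 the differences of the brighter and the dimmer probe were -0.034 and -0.049, and after quantile normalization they were -0.23 and -0.0505.

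Bcl2l1, which codes for BCL-XL, was the anti-apoptotic member with the widest spread. The probe at chr2:152606404-152606463 (minus strand) read 0.38, 0.08 and 1.02 in control and 0.01, 1.09 and 0.12 in knockout. One array of each genotype, control 3 and knockout 2, stood well above the other two of its group, and the SDs of 0.48 and 0.60 exceeded the difference of -0.09 (SE 0.353, 95% interval -0.92 to 0.74, limma, adjusted p = 0.880). The other probe of the gene starts 48781 bases away, at chr2:152655185-152655244, and was not well above background on any array. It read -5.76, -5.77 and -4.85 in control and -5.49, -4.58 and -5.97 in knockout, which gives only an upper bound for the transcript it reads and no fold. The sequence printed above for it is coding sequence, and the 2 probes of Bcl2l1 therefore disagree on whether the gene was detected.

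The pore-forming effectors had the most negative differences of all members in the values as scaled here, although neither passed the adjusted p. The dimmer probe of Bad, described below, was more negative than both after quantile normalization (-0.50), in the deposited values (-0.51) and after cyclic loess (-0.39). Bak1, probed at chr17:27156807-27156866 (minus strand), read 4.05, 3.94 and 4.06 in control and 3.51, 3.48 and 3.60 in knockout. Each group was tight, with SDs of 0.06 in both, and the highest knockout value lay below the lowest control value. The difference was -0.49 (SE 0.136, 95% interval -0.80 to -0.17), which is 1.40-fold lower, with an unadjusted p of 0.00844 and an adjusted p of 0.123 in limma. Bax, at chr7:52717122-52717181 (minus strand), read 4.15, 4.26 and 4.44 in control and 3.82, 3.86 and 3.86 in knockout. The knockout arrays were nearly identical, with an SD of 0.03, and all lay below the control arrays, whose SD was 0.15. The difference was -0.44 (SE 0.145, 95% interval -0.78 to -0.10), or 1.35-fold lower, with an unadjusted p of 0.0187 and an adjusted p of 0.147 in limma.

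The BH3-only members were mixed. Bcl2l11 codes for BIM, the main killer of lymphocytes that lose growth signals or meet self antigen, and its probe spans an intron, with its ends 11096 bases apart on chromosome 2 (chr2:127972893-127983988, plus strand). It read -2.39, -2.40 and -1.97 in control and -2.98, -1.44 and -1.62 in knockout. Knockout 1 was the lowest array and the other two knockout arrays were the highest, so that the genotypes overlapped and the difference of 0.24 (SE 0.396, 95% interval -0.69 to 1.17, limma, adjusted p = 0.708) could not be placed on either side of 0. This interval reaches past 2-fold, and Bcl2l11 is the member about which these arrays say least.

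Bid links death receptors to the mitochondrion once caspase-8 cuts its protein. Its probe at chr6:120843464-120843523 (minus strand) read 3.20, 3.20 and 3.14 in control and 3.04, 2.84 and 2.99 in knockout. The knockout arrays were all lower, and the difference was -0.22 (SE 0.139, limma, adjusted p = 0.332).

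Bad, whose protein binds BCL2 and BCL-XL when growth factor signals cease, had 2 probes that start 9405 bases apart on chromosome 19. The brighter one, at chr19:7026323-7026382 (plus strand), read 3.54, 3.38 and 3.49 in control and 3.11, 3.01 and 3.22 in knockout. All knockout values were below all control values, with a difference of -0.36 (SE 0.142, 95% interval -0.69 to -0.02, 1.28-fold lower, limma, unadjusted p = 0.0387, adjusted p = 0.187). The dimmer one, at chr19:7016918-7017403, crosses a short intron and read -1.54, -0.66 and -1.14 in control and -1.45, -1.63 and -1.32 in knockout. Its difference was also -0.36 (SE 0.239, adjusted p = 0.359), but control 1 lay within the knockout range and the genotypes overlapped. This difference moved from -0.57 without control 1 to -0.13 without control 2, and after quantile normalization it was -0.50 where the brighter probe gave -0.14.

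Bbc3 and Pmaip1 code for PUMA and NOXA, which p53 switches on after DNA damage. Bbc3, at chr7:16903403-16903462 (plus strand), read 2.81, 2.89 and 2.90 in control and 2.41, 2.49 and 2.78 in knockout. Knockout 3 came within reach of the control arrays without overlap, and the difference was -0.30 (SE 0.157, 95% interval -0.67 to 0.06, limma, adjusted p = 0.262). Pmaip1, at chr18:66625088-66625147 (plus strand), read 3.69, 3.61 and 4.25 in control and 3.70, 3.31 and 3.84 in knockout. Control 3 stood above the rest, the genotypes overlapped, and the difference was -0.24 (SE 0.230, adjusted p = 0.514). It was -0.035 without control 3 and -0.082 without knockout 2.

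The median difference over all probes changed with brightness, and the part of this in the member differences was not tested. When the tested probes were ordered by mean level and split into 20 bins of about equal size, the bins that hold Bcl2, Bax, Bak1, Bid, Bbc3, Pmaip1 and the brighter probe of Bad had medians of -0.24 to -0.25, while the bin of the brighter Mcl1 probe had 0.18 and that of Bcl2l11 had 0.19. Against its own bin, 7 of the 12 member probes lay within the interquartile range and 6 lay below the median. Bid, Bbc3 and Pmaip1 were within 0.1 of their bin medians. Bak1 and Bax lay below the interquartile range of their bins, in which 40.3% and 39.0% of the probes had all knockout values below all control values. Bcl2 lay above the interquartile range of its bin, and the brighter probe of Mcl1 and the dimmer probe of Bad lay below theirs.

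**Figure D2:**
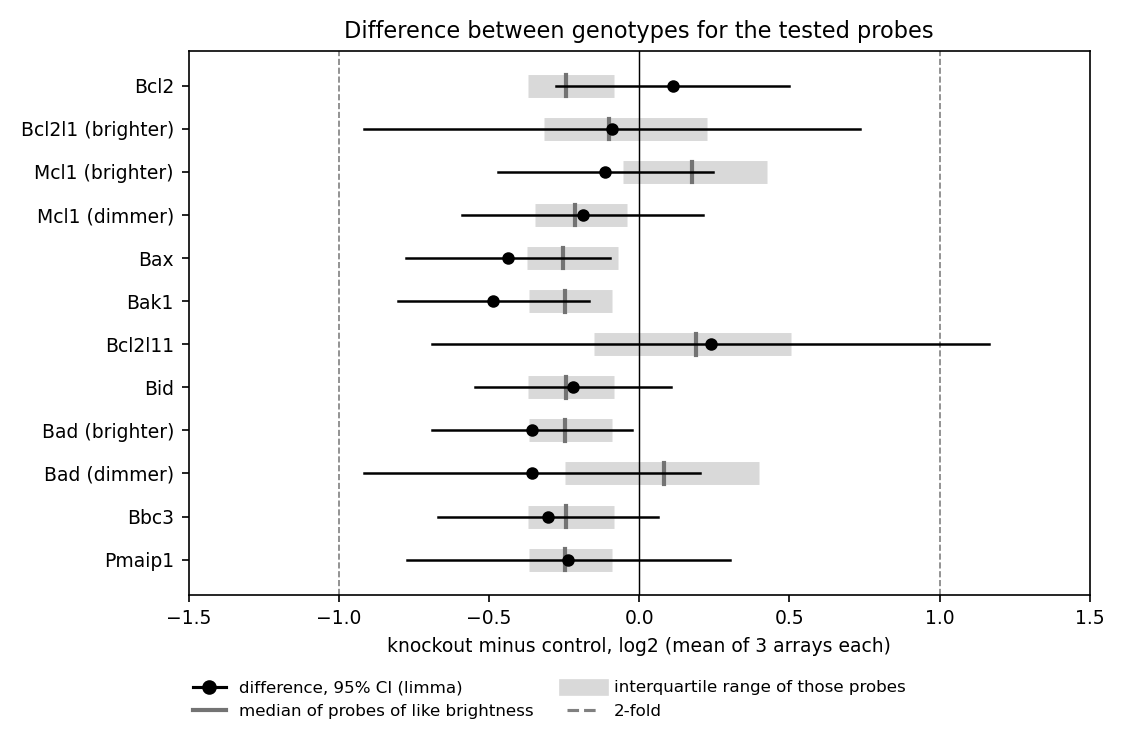
Difference between genotypes (knockout minus control, log2, horizontal axis) of the 12 tested member probes with 95% intervals from limma, n = 3 arrays per genotype, beside the median (grey tick) and interquartile range (grey bar) of the probes of like brightness. The intervals of Bax, Bak1 and the brighter probe of Bad lie below 0, no difference reaches 2-fold, and most points lie in or near the grey bar.

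A ratio of 2 probes on the same array does not change when the array is multiplied by 1 factor, though it can change under normalizations that act by brightness. The ratios below were chosen after the values had been seen, so no p is given, and their absolute size has no meaning because the probes differ. How often ratios separate the genotypes over all pairs of probes was not counted, and 35.2% of single tested probes did so. Bcl2 lay above the interquartile range of its level bin and Bak1 and Bax below theirs. The ratios of Bcl2 to them therefore repeat those values and add no support. The log2 of Bcl2 over Bak1 was -1.01, -1.07 and -1.06 in control and -0.19, -0.44 and -0.71 in knockout. All 3 knockout arrays were higher, by 0.60 on average, with an SD of 0.03 in control and 0.26 in knockout. The log2 of Bcl2 over Bax was -1.11, -1.39 and -1.44 in control and -0.49, -0.83 and -0.97 in knockout, again with all knockout arrays higher, by 0.55 on average. Under the 4 alternatives that could move a ratio on all 6 arrays (quantile normalization, the deposited values, cyclic loess and normexp), these ratios were higher in knockout by 0.56 to 0.61 for Bak1 and by 0.55 to 0.57 for Bax. With 1 array left out they were higher by 0.47 to 0.73 and by 0.41 to 0.65. Mcl1 over Bak1 was higher in knockout by 0.37 on average without overlap, but by 0.065 to 0.30 under the same 4 alternatives, and Mcl1 over Bax (0.32), Bcl2l1 over Bak1 (0.39) and Bcl2l1 over Bax (0.35) overlapped between genotypes. These ratios describe, without a test, how 2 probe values lay to each other on these arrays, and do not show which of the 2 differed.

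Member probes passed the adjusted p under 1 of the 17 alternatives. It took the mean and background signals in place of the processed signal and applied normexp with an offset of 50, and the parts of these changes were not tested apart. The knockout arrays are the dimmer ones, and the same offset was added on all 6 arrays. Under it, 9332 of 24756 probes had an adjusted p under 0.05, and 4 member probes were among them. These were Bak1 (-0.73, limma, adjusted p = 0.0126), Bax (-0.73, adjusted p = 0.0127), the brighter probe of Bad (-0.64, adjusted p = 0.0201) and Bbc3 (-0.51, adjusted p = 0.0414). In the 11 alternatives that can move a difference (5 other normalizations or scalings and 6 arrays left out), it stayed below 0 for these 4 probes. Over all 17 alternatives the adjusted p was 0.0126 to 0.341 for Bak1, 0.0127 to 0.398 for Bax, 0.0201 to 0.489 for the brighter probe of Bad and 0.0414 to 0.654 for Bbc3. After quantile normalization the differences were closest to 0, at -0.30 for Bak1, -0.24 for Bax, -0.14 for the brighter probe of Bad and -0.11 for Bbc3. Bak1 and the brighter probe of Bad kept all knockout values below all control values after quantile normalization, in the deposited values and after cyclic loess. Bax kept them below in the last 2 of these and overlapped in the first, and Bid and Bbc3 overlapped in all 3. With normexp these 5 probes and both probes of Mcl1 lay wholly below control, and Bcl2l11 lay wholly above.

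**Figure D3:**
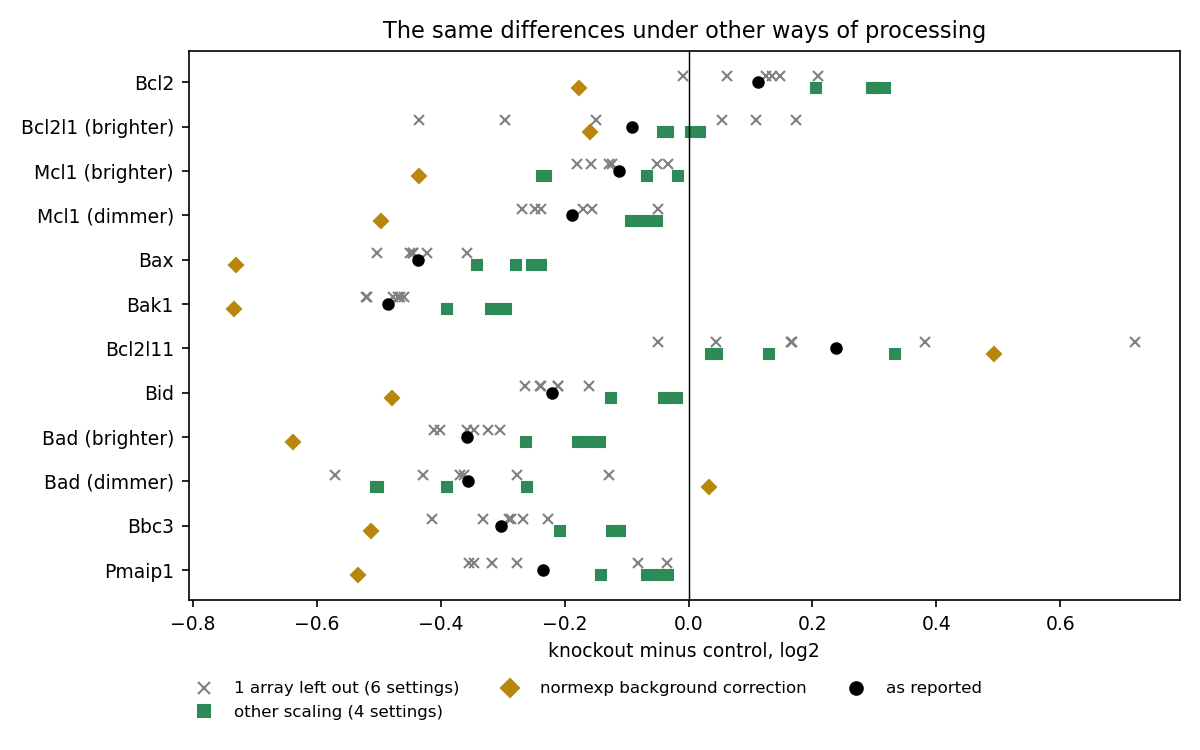
The differences of the 12 tested member probes (knockout minus control, log2, horizontal axis) as reported (black), with each array left out in turn (grey crosses), under 4 other scalings (green squares) and after normexp background correction (gold diamonds). Bax, Bak1, Bid, Bbc3, Pmaip1, both probes of Mcl1 and the brighter probe of Bad stay below 0 throughout, with normexp farthest from 0, and Bcl2, Bcl2l1, Bcl2l11 and the dimmer probe of Bad cross it.

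The genes whose pattern over the 6 arrays was most like that of Bak1, out of 9654 named candidates, were Hhat (Pearson r = 0.9986), Hmga2-ps1 (r = 0.9969) and Ccdc75 (r = 0.9964). The points share 6 arrays and 2 genotypes, so these values describe likeness over 6 points. Hhat differed by -0.42 (limma, adjusted p = 0.142) and Ccdc75 by -0.42 (adjusted p = 0.138), while Hmga2-ps1 differed by -0.88 (adjusted p = 0.0784).

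The wider apoptosis pathway was read from 7 lists of 75 genes, of which 72 had a probe under their name and 65 were tested. One, Birc5, passed the 2-fold thresholds (3.64% of all probes did), none passed the adjusted p (0.0808%), and 43 of 65 lay below 0 (57.6%) with a median of -0.14. All knockout values lay below all control values in 14 genes (19.6% of all probes) and above them in 6 (15.6%). The same 19.6% and 15.6% apply to the counts within each list below, in which 13 genes or fewer were tested. Both are shares over probes of all levels. Over the 20 level bins the share wholly below ran from 6.79% to 40.3%, and the share wholly above from 5.09% to 49.9%. Birc5 codes for survivin, an inhibitor of apoptosis that is made in dividing cells, and read 2.59, 1.66 and 2.14 in control and 0.12, 1.21 and 0.78 in knockout. The difference was -1.43, with knockout 2 nearest to the control arrays (limma, adjusted p = 0.103).

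Of the other BCL2 relatives, Bmf, a further BH3-only gene, read 0.25, -0.21 and 0.03 in control and -0.47, -1.19 and -0.58 in knockout. Its groups did not overlap, and the difference of -0.77 (limma, adjusted p = 0.131) was larger in size than that of any member. With normexp the difference of Bmf was -0.38. That was smaller in size than those of several member probes, among them Bak1, Bax, the brighter probe of Bad, Bbc3, Bid (-0.48) and Bcl2l11 (0.49). Bcl2l14, a relative of the same list, differed by 0.77 (adjusted p = 0.214) with overlap, and 1 of its 2 probes was tested. Bcl2l2, an anti-apoptotic relative also called BCL-W, differed by -0.46 (adjusted p = 0.296) with overlap. The probe named Bcl2a1c, of the A1 group of B cell survival genes, read 0.96, 0.81 and 0.81 in control and 1.74, 0.99 and 1.06 in knockout, a difference of 0.40 (adjusted p = 0.285) without overlap, and that named Bcl2a1d differed by 0.18 (adjusted p = 0.648). The array files list 3 A1 transcripts for the probe named Bcl2a1d, so its signal cannot be assigned to a single copy. Bcl2l10, Bok, Bik and Hrk were not well above background on any array. The mitochondrial relatives Bnip3 (0.09) and Bnip3l (-0.048) overlapped between genotypes.

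Downstream of the mitochondrion, all 13 genes of the apoptosome and executioner list were tested and 1, Diablo, lay wholly below control. Cycs, which codes for cytochrome c, differed by -0.21 (adjusted p = 0.407), and the initiator caspase gene Casp9 by -0.36 (adjusted p = 0.320). Among 8 genes of the IAP proteins, which block caspases, 3 lay wholly below control, and Xiap was one of them with a difference of -0.37 (adjusted p = 0.207). In the death receptor list 4 of 11 tested genes lay wholly below control and 1 above (19.6% and 15.6% of all probes). Ripk1, a kinase that carries signals from these receptors, had all knockout values below control and a difference of -0.50 (limma, adjusted p = 0.136), and Fas, the receptor itself, differed by 0.87 (adjusted p = 0.149).

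The list of p53 and FOXO control had 3 of its 13 tested genes wholly above control and 1 below, where 15.6% and 19.6% of all probes did so. Mdm4, an inhibitor of p53, read 2.53, 1.96 and 2.30 in control and 3.11, 3.05 and 3.05 in knockout, a difference of 0.81 (limma, adjusted p = 0.0998). The p53 relatives Trp63 (0.91, adjusted p = 0.117) and Trp73 (0.97, adjusted p = 0.142) were the other two, each from the 1 tested probe of the 4 and 3 that carry their names. Trp53 itself (0.26, adjusted p = 0.387) and Foxo3 (-0.044, adjusted p = 0.932) overlapped between genotypes. Among 11 genes of MCL1 turnover and mitochondrial partners, 3 lay wholly below and 1 above. The differences of Huwe1 (-0.005), Usp9x (0.41) and Fbxw7 (-0.22), whose proteins add or remove ubiquitin on MCL1, all overlapped between genotypes.

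**Figure D4:**
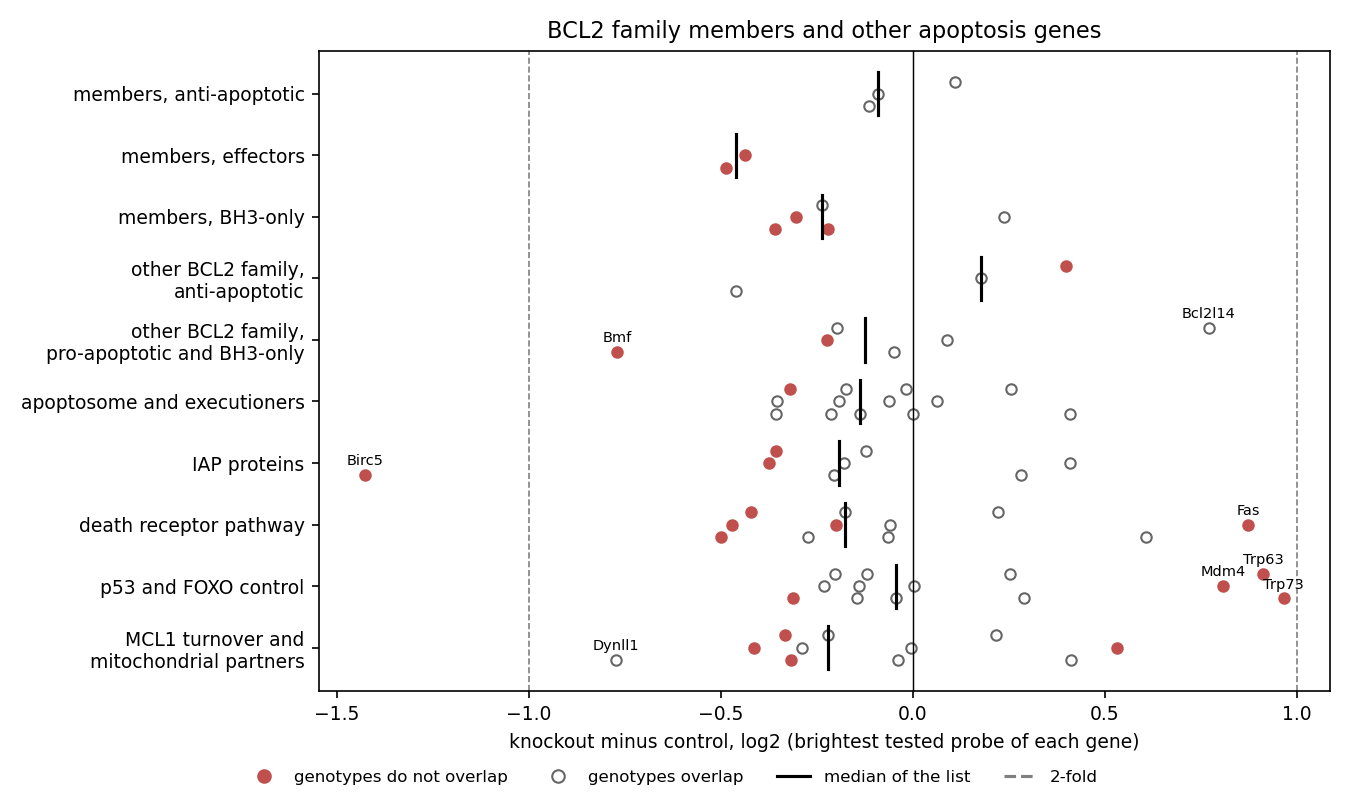
Difference between genotypes (knockout minus control, log2, horizontal axis) for the brightest tested probe of each member gene and of each gene of the 7 other apoptosis lists, filled where the 3 knockout and 3 control values do not overlap, with the median of each list as a black line. The member medians are -0.09 for the anti-apoptotic genes, -0.46 for the effectors and -0.24 for the BH3-only genes, and Birc5 alone lies beyond 2-fold.

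RefSeq promoters (GRCm38.p6, windows of 300 bases with 250 before the start) were listed for 9 of the 10 members, 15 windows in all. Letters were searched on both strands. GGGCGG, the GC box, stood in 10 of the 15 windows and in at least 1 window of 7 genes, where 35.7% of all 32851 windows held it, and Bak1 and Bcl2l1 were the members without it. The windows of Bbc3, Bcl2 and Bcl2l11 held 71.0% to 78.0% G and C against a median of 52.7% over all windows. The window of Bax was the one member window with the decamer half-site of p53, which 8.36% of all windows held, and TGTTTAC, the FOXO letters, stood in 1 window each of Bcl2l11 and Bbc3 (3.65% of all windows). CCAAT stood in 4 windows (37.4% of all windows) and CACGTG in 1 window each of Bax and Bbc3 (7.15%). None of the 15 held TATAAA (13.6% of all windows). Bax and Bak1 thus shared none of the motifs searched. A match of letters is a description and not a site of binding.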

How the data were processed

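PC B1a cells of 6 samples were read on 1-colour Agilent arrays of 59305 non-control spots, and all 6 arrays share 1 scan time. The authors deposited the processed spot intensity of each array from Agilent Feature Extraction 10.7.1.1 (background subtracted, without scaling across arrays). They also deposited log2 values of all arrays in 1 table. Its sorted columns are identical within 0.000545, as after quantile normalization. Per the methods, values were log2-transformed and read in Genespring, with signals checked against background. No scaling between arrays is named there.

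Outlier spots (163 to 251 per array) were left out, log2 of the processed signal minus the 75th percentile of the array was taken, and spots of a probe were averaged. No spot was saturated. Probes measured on at least 2 arrays of each genotype and well above background on all arrays of 1 genotype were fitted without covariates in limma 3.58.1 (lmFit, eBayes, R 4.3.3), with Benjamini-Hochberg adjustment over all 24756 tested probes. The number of arrays limits the precision. Pearson r between arrays of 1 genotype was 0.978 to 0.991. The fit was tested on simulated data.

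The members and gene lists were chosen with earlier results of these data known. Named beside the members are Il2ra, Il12b, the 6 pathway genes with the smallest p (fewer than 6 passed 2-fold) and the 3 genes most like Bak1. Other genes named were picked after their values were seen. Each pathway gene is given by its brightest tested probe. Coordinates are those of the array files (mm9), and no exon annotation of that build was used. Alternatives were quantile normalization, normexp (offset 50), another scaling, the deposited log2 values, other filters, 1 probe per gene, eBayes with a trend and robust estimation, the methods' t-test, leaving out each array, and a block for the replicate number. Cyclic loess was added after seeing the data. Some genes that these lists cover are left out by name.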

Additional observations from a re-analysis of the deposited data

How the results depend on the processing

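Member probes at 2-fold stayed at 0 in every alternative run, and the members' median stayed below 0. That median was -0.0805 after quantile normalization, -0.0937 in the deposited values, -0.0736 after cyclic loess, -0.13 with scaling on the median of detected probes and -0.49 with normexp, and -0.30 to -0.21 with 1 array left out. The causes of these shifts were not tested.

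All probes at 2-fold numbered 233 with normexp, 18975 without the filter on dim probes, 592 with the filter on all 6 arrays, and 744 to 1540 with 1 array left out (1540 without knockout 3). Probes with an adjusted p under 0.05 numbered 6 after quantile normalization and in the deposited values, 9332 with normexp, 8 with scaling on the median of detected probes, 2 without the filter, 96 with the filter on all 6 arrays, 7 with 1 probe per gene, 1 with the methods' t-test, 980 with a trend and robust estimation in eBayes, 36 after cyclic loess, and 2 to 115 with 1 array left out (115 without knockout 3, at most 3 otherwise). The deposited values gave 43.2% of their 2-fold calls higher in knockout. Pathway genes at 2-fold numbered 2 after quantile normalization, in the deposited values and after cyclic loess, 3 with scaling on the median of detected probes, 6 without the filter, and 1 to 4 with 1 array left out.

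With the replicate number as a block, 904 probes passed 2-fold and 1 the adjusted p. Deviations of same-numbered arrays correlated at 0.175, 0.057 and 0.120, and the labels do not say what the numbers share, so they do not pair the samples.

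Some differences changed sign. With normexp the dimmer probe of Bad gave 0.033, Bcl2 -0.18 and Il12b 0.35. Scaling on the median of detected probes gave 0.004 for Bcl2l1 and 0.073 for Il12b, and cyclic loess gave 0.018 for Bcl2l1. With 1 array left out, Bcl2 gave -0.0094 to 0.21 (below 0 without knockout 1), Bcl2l1 -0.44 to 0.17 (above 0 without control 3, knockout 1 or knockout 3), Bcl2l11 -0.0495 to 0.72 (below 0 without knockout 2) and Il12b -0.16 to 0.20. Bax and Bak1 ranged over -0.50 to -0.36 and -0.52 to -0.46. Of the pathway genes, Birc5, Mdm4, Trp63, Trp73 and Ripk1 passed the adjusted p with normexp, and Birc5, Mdm4 and Trp63 also with a trend and robust estimation in eBayes, without a change of sign for any of them or for Bmf. Il2ra passed it with normexp (adjusted p = 0.00467) and without knockout 3 (0.0487). The lower signal of the knockout arrays limits what can be read from dim probes such as Bcl2l11.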

Other observations

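One probe outside the rule, singled out after its values were seen, is described in the array files as BCL2-like 11 but carries the name ENSMUST00000129206 in place of Bcl2l11. It lies on the plus strand of chromosome 2, at chr2:127954736-127955417 (mm9), upstream of the Bcl2l11 probe. It read -3.14, -3.51 and -2.90 in control and -2.37, -2.37 and -2.28 in knockout, so that all knockout arrays were higher, but only 2 of the 3 knockout arrays were well above background. The difference was 0.84 (SE 0.186, limma, adjusted p = 0.0996), and it was 0.58 to 0.98 over 16 alternatives, with an adjusted p of 0.0105 under normexp. Among probes of like brightness the median difference was 0.19, and 21.2% lay wholly above control. The lowest level read as well above background was -4.53 to -4.09 on control arrays and -3.67 to -2.47 on knockout arrays. The part of this in the difference was not tested. The probe of Bcl2l11 itself overlapped between genotypes, and the 2 probes were not compared by a test.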
